A study of Mus musculus with 6 samples.

Results

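The lysyl oxidase family was examined as 5 genes, Lox and its 4 paralogues Loxl1, Loxl2, Loxl3 and Loxl4, which were found by gene symbol among the 55487 Ensembl gene identifiers of the deposited count table. All 5 passed the filter on low counts that left 19015 tested genes. Bulk RNA-sequencing had been performed on 6 cultures of primary endothelial cells (ECs) from the skin of C57BL/6 mice, 3 of them in medium with normal glucose at 5 mmol/L, and the other 3 with high glucose at 20 mmol/L, each for 48 hours. Each cell preparation started from the skin of 4 to 6 mice aged 2 to 3 months, digested with collagenase and incubated with beads against CD31. Both groups share this described origin, and glucose is the only difference that the labels state. No osmolarity-matched culture is among these samples, so glucose and osmolarity cannot be told apart. The study counts its replicates in mice, while the labels describe preparations pooled from several mice, and neither says which replicates share a preparation. P values therefore measure only the spread between these cultures.

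Lysyl oxidases are secreted, copper-dependent amine oxidases. They convert lysine and hydroxylysine side chains of collagens and elastin into aldehydes, which then form the covalent cross-links that give fibers their strength. Lox is made with a propeptide that proteinases of the BMP1 group remove, and Loxl1 is the paralogue best known for elastic fibers. Loxl2, Loxl3 and Loxl4 carry scavenger receptor domains in place of this propeptide, and Loxl2 is known to cross-link collagen IV of basement membranes.

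The catalytic part is the most alike among the members. The following stretches of coding sequence encode part of the copper-binding segment. They are shown because they illustrate how far the paralogues differ within the catalytic part, and so how their reads can be told apart. They were read from GENCODE M21 transcripts (GRCm38), 5′ to 3′ along each gene. Capitals mark the 26 of 45 bases that are identical in the 4 paralogues shown.
Loxl1: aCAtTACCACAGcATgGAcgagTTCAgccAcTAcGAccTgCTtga
Loxl2: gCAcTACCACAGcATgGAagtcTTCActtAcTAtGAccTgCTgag
Loxl3: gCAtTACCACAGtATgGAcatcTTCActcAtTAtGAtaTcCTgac
Loxl4: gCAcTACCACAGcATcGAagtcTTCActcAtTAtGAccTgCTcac
The Loxl1 stretch lies in exon 4 of 7 (chr9:58293685-58293729, minus strand), that of Loxl2 in exon 11 of 14 (chr14:69689028-69689072, plus strand), that of Loxl3 in exon 11 of 14 (chr6:83050116-83050160, plus strand) and that of Loxl4 in exon 12 of 15 (chr19:42598772-42598816, minus strand). The Loxl2 stretch is matched at 40 of the 45 bases by Loxl4, at 35 by Loxl3 and at 33 by Loxl1. Over whole transcripts, the longest run of identical bases shared by any pair of members was 32 bases, between Lox and Loxl1. Loxl3 shared at most 26 identical bases in a row with another member.

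The total counts per culture lay between 120192466 and 146881356. The labelled cell type was checked against its markers before the results were read. Of 12 endothelial markers, 7 were under 1 CPM (the counts of a gene relative to its library total, scaled between libraries by edgeR's TMM method) on average, and Pecam1, which encodes CD31, was at 0.128 CPM in normal and 0.103 CPM in high glucose. Cdh5, which encodes VE-cadherin, was at 1.80 and 0.875 CPM. The summed level of the 12 genes was 73.7 to 77.0 CPM in normal and 57.0 to 57.6 CPM in high glucose. Most of it came from Flt1, at 55.3 CPM in normal and 38.4 CPM in high glucose on average. By contrast, the 10 fibroblast markers summed to 11150 to 11223 CPM in normal and 13814 to 14696 CPM in high glucose. The largest part was Dcn, at 4492 and 6748 CPM on average. The values below are therefore those of cultures in which fibroblast markers far exceeded endothelial markers. In bulk RNA a change in the share of a cell type and a change in RNA per cell cannot be told apart.

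High glucose cultures held more Lox, Loxl1 and Loxl2 transcript, by 20.1% to 30.9%, whereas Loxl3 fell by 22.6%. Loxl4 did not pass the threshold. Thus, 4 of the 5 members passed an adjusted P value of 0.05 in edgeR's quasi-likelihood test, 3 higher and 1 lower. Of all 19015 tested genes, 31.4% passed, 16.9% higher and 14.5% lower. Higher genes made up 53.8% of all calls with TMM scaling, 43.5% with upper quartile scaling and 27.1% with library size scaling, which moved the median of all log2 fold changes by -0.11. Under library size scaling Loxl1 was no longer called.

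**Figure D1:**
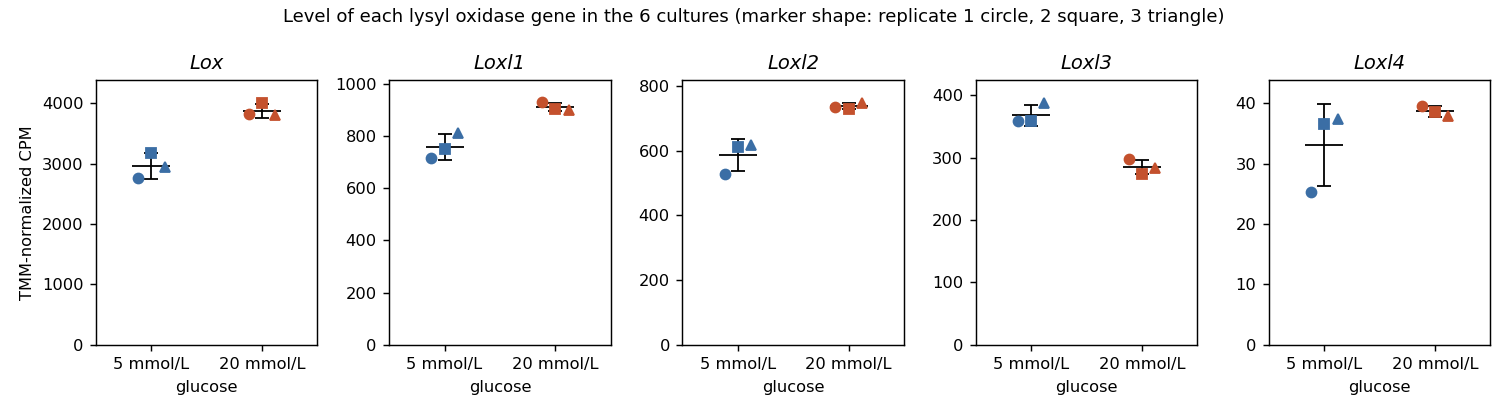
Level of each family member in TMM-normalized CPM (vertical axis, from 0, with a scale of its own for each gene) in the 3 cultures at 5 mmol/L and the 3 at 20 mmol/L glucose. Points are cultures, with the shape giving the replicate number, and bars give the mean ± SD. Lox, Loxl1 and Loxl2 lie higher in every high glucose culture, Loxl3 lies lower, and for Loxl4 the normal glucose culture at 25.2 CPM stands below all others.

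Lox, the founding member that oxidizes fibrillar collagens and elastin, was the most abundant. In GRCm38, the build used for all positions here, the gene (ENSMUSG00000024529) occupies 52516067 to 52529867 of chromosome 18, minus strand. It had 2761, 3184 and 2938 CPM in normal glucose replicates 1, 2 and 3, and 3820, 4003 and 3801 CPM in the high glucose replicates. Every high glucose culture was above every normal glucose culture. The means were 2961 ± 212 and 3875 ± 112 CPM (SD, n = 3). On the log2 scale Lox rose by 0.39, with a standard error of 0.061 (edgeR, Benjamini-Hochberg adjusted P = 0.000852). These values rest on 345746 to 542018 counts per culture, or 0.288% to 0.382% of a library. Of the 3212 genes called higher, 1554 rose by more than Lox.

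Loxl1 (ENSMUSG00000032334, chromosome 9, 58287738 to 58313186, minus strand) is the elastic fiber paralogue. It was measured at 714, 748 and 812 CPM in normal glucose, and at 929, 904 and 897 CPM in high glucose. The groups did not overlap, and the high glucose cultures were closer to one another than the normal glucose cultures. Loxl1 rose by 0.26 on the log2 scale, with a standard error of 0.058 (adjusted P = 0.00618). This was the smallest of the 3 rises, and 2381 of the genes called higher rose by more.

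Loxl2 (ENSMUSG00000034205, chromosome 14, 69609068 to 69695834, plus strand) had 529, 613 and 617 CPM in normal glucose and 735, 730 and 748 CPM in high glucose. Here too every high glucose culture was above every normal glucose culture, and normal glucose replicate 1 was the lowest of the 6. Loxl2 rose by 0.33 on the log2 scale, with a standard error of 0.065 (adjusted P = 0.00319). Without that replicate it was 0.24 (adjusted P = 0.00119).

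Loxl3 (ENSMUSG00000000693, chromosome 6, 83034173 to 83052562, plus strand), a paralogue needed for palate and spine development in mice, moved in the opposite direction. It had 358, 358 and 388 CPM in normal glucose and 297, 274 and 283 CPM in high glucose. All 3 high glucose cultures were below all 3 normal glucose cultures. The means of 368 ± 17.1 and 285 ± 11.5 CPM (SD, n = 3) gave a log2 difference of -0.37 with a standard error of 0.056 (adjusted P = 0.000657). A larger fall was seen for 1770 of the 2757 genes called lower.

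Loxl4 (ENSMUSG00000025185, chromosome 19, 42593982 to 42612813, minus strand) was the least abundant member, from 3162 to 5621 counts per culture. It had 25.2, 36.6 and 37.5 CPM in normal glucose and 39.6, 38.5 and 37.9 CPM in high glucose. Although the groups did not overlap, 2 of the normal glucose cultures lay close to the high glucose cultures, and replicate 1 stood apart. The log2 fold change of 0.22 had a 95% interval from -0.049 to 0.50 (adjusted P = 0.195). Without normal glucose replicate 1 it was 0.044 (adjusted P = 0.524). All 5 members had groups that did not overlap, as had 46.4% of all tested genes. For each member the two-sided exact permutation test gave P = 0.1, the smallest value possible with 3 cultures against 3.

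**Figure D2:**
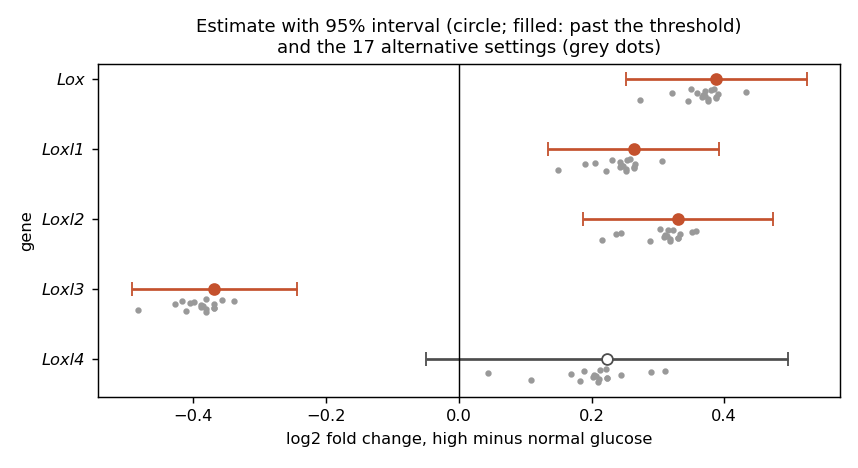
Log2 fold change, high minus normal glucose (horizontal axis), of the 5 members (vertical axis). Circles with bars are the estimates with their 95% intervals, filled where the adjusted P value was under 0.05, and grey dots are the estimates under 17 other settings each. The dots of Lox, Loxl1, Loxl2 and Loxl4 all lie above 0 and those of Loxl3 all lie below 0, while the interval of Loxl4 includes 0.

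Exons of 3 members overlap other annotated genes, and no source says that strand was used in counting, so reads at these bases cannot be assigned. Loxl3 shares 535 bases with Htra2, which encodes a mitochondrial serine protease, on the opposite strand. Htra2 had 47.4 ± 1.83 CPM in normal and 46.5 ± 1.72 CPM in high glucose (SD, n = 3), well below Loxl3. Its log2 difference was -0.027 (adjusted P = 0.744). Loxl2 shares 301 bases with the antisense gene Gm27177 and 7 with the microRNA gene Mir6950, and Lox shares 30 bases with the antisense gene AC161119.1. Gm27177 and AC161119.1 were lower in high glucose, with log2 fold changes of -0.35 and -0.77 (adjusted P = 0.00721 and 0.00112), at 10.4 and 3.01 CPM in normal glucose.

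Levels were compared between members only after division by the merged length of their exons, as RPKM, which is CPM per kilobase. In both groups the order was Lox, Loxl1, Loxl2, Loxl3 and Loxl4. Lox had 620 ± 44.4 RPKM in normal and 811 ± 23.4 RPKM in high glucose (SD, n = 3), which placed it 45th and 26th among the 19015 tested genes. Loxl1 had 230 ± 15.0 and 276 ± 5.01 RPKM, Loxl2 had 109 ± 9.16 and 136 ± 1.71 RPKM, Loxl3 had 79.9 ± 3.72 and 61.9 ± 2.50 RPKM, and Loxl4 had 7.86 ± 1.62 and 9.18 ± 0.210 RPKM. No neighbors in this order overlapped in any culture. In normal glucose the closest neighbors were Loxl2 and Loxl3. The log2 ratio of Loxl2 to Loxl3 was 0.33, 0.54 and 0.44 in the normal glucose cultures and 1.07, 1.18 and 1.17 in the high glucose cultures.

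The make-up of the family differed between the groups mainly in Lox and Loxl3. Per unit of length, Lox held 59.2% ± 1.70 of the summed family level at 5 mmol/L and 62.6% ± 0.916 at 20 mmol/L glucose (SD, n = 3), and Loxl3 held 7.65% ± 0.471 and 4.78% ± 0.238. For both, the groups did not overlap (two-sided exact permutation P = 0.1, as low as 3 against 3 allows). The Loxl3 share was 7.97%, 7.11% and 7.88% in the normal glucose cultures and 5.00%, 4.53% and 4.82% in the high glucose cultures. The shares of Loxl1 (22.0% ± 1.15 and 21.3% ± 0.486), Loxl2 (10.4% ± 0.328 and 10.5% ± 0.288) and Loxl4 (0.747% ± 0.117 and 0.709% ± 0.0174) overlapped between the groups. The exact permutation test gave P = 0.5, 0.5 and 0.6 for these 3. These shares need no scaling between libraries. Within a culture they are parts of the same sum, so the Lox and Loxl3 differences are not separate results. The ratios of Lox to Loxl1, Loxl2 and Loxl4 overlapped between the groups.

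**Figure D3:**
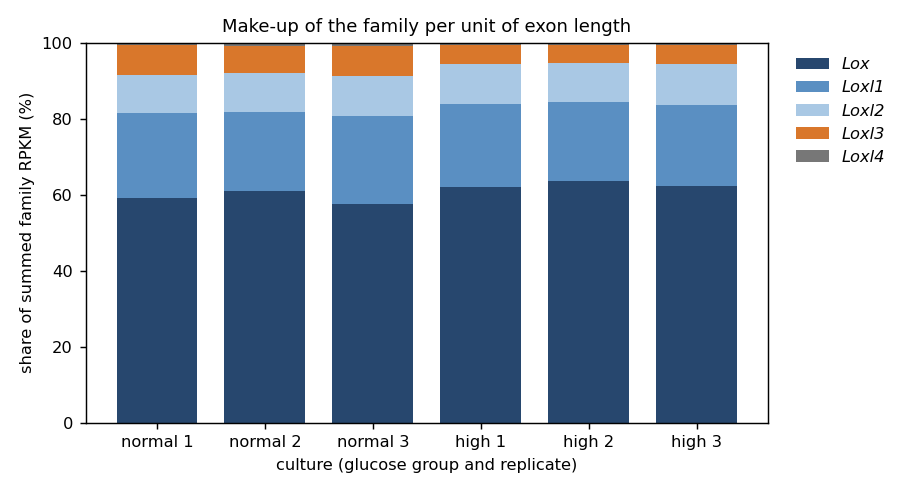
Share of each member in the summed RPKM of the family (vertical axis, percent) in each of the 6 cultures (horizontal axis, glucose group and replicate). The Loxl3 segment shrinks from between 7.11% and 7.97% in normal glucose to between 4.53% and 5.00% in high glucose, and Lox takes 57.6% to 61.0% and 61.9% to 63.7%, while Loxl4 is a thin line at the top.

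Among the 10 pairs of members, the 4 log2 ratios that involve Loxl3 did not overlap between the groups, and the other 6 did. The ratio of Lox to Loxl3 rose by 0.76 on the log2 scale, from 2.95 ± 0.127 to 3.71 ± 0.0932 (SD, n = 3), that of Loxl1 to Loxl3 by 0.63 and that of Loxl2 to Loxl3 by 0.70. The ratio of Loxl3 to Loxl4 fell by 0.61. Each had P = 0.1 in the two-sided exact permutation test and a Benjamini-Hochberg adjusted P value of 0.25 over the 10 pairs. The other 6 differences lay between -0.068 and 0.14, with exact permutation P values from 0.3 to 1.

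Because the family acts on collagens and elastin, transcripts of these substrates were set beside it. Of 12 genes for fibrillar collagen chains and elastin, 11 were tested, 8 were higher and the other 3 did not pass. Over all tested genes, 16.9% were higher and 14.5% lower. Their median log2 fold change was 0.48, compared with 0.0062 over all tested genes. Col3a1 and Col1a1, which encode the main chains of collagens III and I, had log2 rises of 1.39 and 0.76 (adjusted P = 1.4e-07 and 1.4e-05). Col5a3 and Col27a1, minor fibrillar chains, rose by 0.68 and 0.67. Eln, which encodes elastin and was named for that role after its values were seen, had 19.1 ± 2.32 CPM in normal and 19.5 ± 1.55 CPM in high glucose (SD, n = 3), which differed by 0.033 on the log2 scale (adjusted P = 0.821). Of the 6 collagen IV chains, 4 were higher, with a median of 0.44. Col4a3 and Col4a4 had the largest changes, 1.24 and 1.06 on the log2 scale, although both were under 1 CPM in each group. Col4a5 and Col4a2 rose by 0.29 and 0.22, and Col4a1, the most abundant chain and likewise named after its values were seen, differed by 0.029 (adjusted P = 0.724).

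Summed fibrillar collagen transcripts rose by more than those of the family. The summed family level went from 976, 1093 and 1068 RPKM in normal glucose to 1291, 1316 and 1277 RPKM in high glucose, a difference of 0.31 on the log2 scale. The summed fibrillar collagen level went from 3886 ± 228 to 7319 ± 277 RPKM (SD, n = 3). Col3a1 and Col1a1 led this sum, from 1265 and 1184 RPKM in normal to 3312 and 2002 RPKM in high glucose. Col5a2 rose by 0.39 on the log2 scale, no more than Lox. Per unit of family transcript there were 4.10, 3.32 and 3.77 units of fibrillar collagen transcript at 5 mmol/L glucose and 5.74, 5.73 and 5.49 at 20 mmol/L, with no overlap between the groups (exact permutation P = 0.1). For Col4a1 and Col4a2 together the ratio to Loxl2 was lower in high glucose, 2.30 ± 0.0615 against 2.68 ± 0.222 (SD, n = 3), also without overlap (exact permutation test, P = 0.1). The ratio of Eln to Loxl1 overlapped between the groups, at 0.0103 ± 0.00116 and 0.00873 ± 0.000535 (SD, n = 3, exact permutation P = 0.2).

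**Figure D4:**
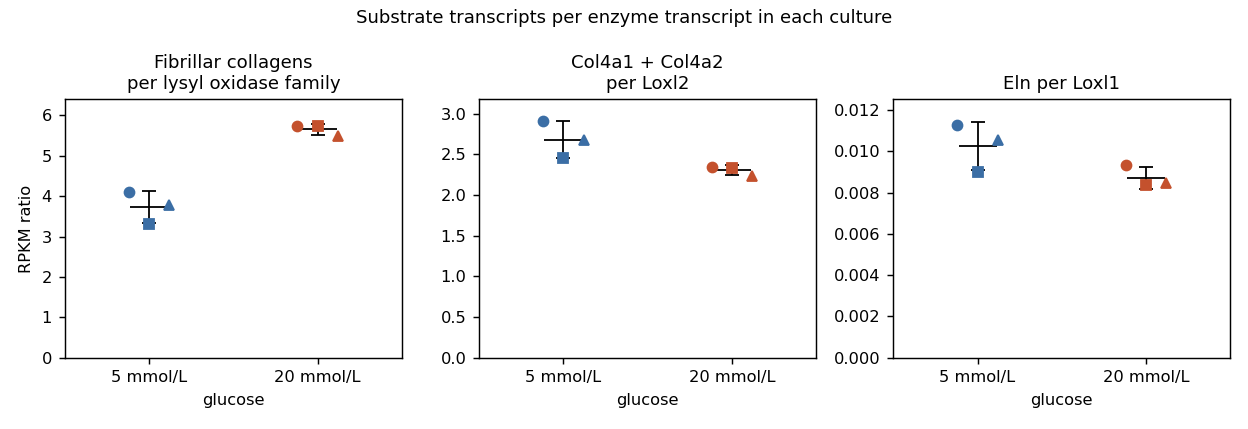
RPKM of substrate transcripts divided by RPKM of enzyme transcripts (vertical axes, from 0) in the 3 cultures at 5 mmol/L and the 3 at 20 mmol/L glucose. Points are cultures and bars the mean ± SD. Fibrillar collagens per family transcript rise from between 3.32 and 4.10 to between 5.49 and 5.74, collagen IV chains per Loxl2 fall, and Eln per Loxl1 overlaps between the groups.

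Markers of other cell types went in both directions. Of the 10 fibroblast markers, 7 were higher and 3 were lower in high glucose, and their median log2 fold change was 0.47. By comparison, 16.9% of all tested genes were higher and 14.5% lower. Endothelial markers were 2 higher and 3 lower of 9 tested, mural cell markers 2 higher and 5 lower of 9, and macrophage markers 1 higher and 2 lower of 4, and keratinocyte markers 1 higher of 3. The summed mural markers lay between 1179 and 1262 CPM in normal and between 1066 and 1135 CPM in high glucose, and the summed macrophage and keratinocyte markers were at most 27.7 and 5.04 CPM in any culture. The part of these cell types in the changes of the family was not tested.

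Genes for proteins that act in propeptide cleavage or place the enzymes on fibers were divided in direction. Of 15 such genes, all tested, 7 were higher and 6 were lower in high glucose, with a median log2 fold change of 0.23. The shares over all tested genes were 16.9% higher and 14.5% lower. Bmp1, which encodes the main proteinase that activates Lox and was chosen for this role after its values were seen, had 821, 840 and 864 CPM in normal glucose and 1135, 1036 and 1100 CPM in high glucose. Its log2 fold change was 0.37 (adjusted P = 0.000456). The related proteinase genes Tll1 and Tll2 fell by 1.17 and 1.65 on the log2 scale (adjusted P = 8.7e-06 and 1.4e-05), from only 8.99 ± 0.807 and 2.46 ± 0.317 CPM in normal glucose. Pcolce, an enhancer of BMP1, rose by 0.41, whereas Pcolce2, the second enhancer, fell by 1.33. Among the genes for matrix proteins in this list, the largest changes were rises of Fmod, Postn and Emilin1 by 0.83, 0.80 and 0.49, and a fall of Thbs1 by 0.49.

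Of 15 genes for copper uptake, chaperones, pumps and metallothioneins, 4 were higher and the other 11 did not pass, and the median log2 fold change was -0.022. This share is below the 31.4% of all tested genes that passed in either direction and above the 16.9% that were higher, so the count does not set the list apart. Without normal glucose replicate 1, and also without replicate 2, 1 gene was lower. Atp7a, which pumps copper into the secretory pathway where lysyl oxidases are loaded, had 21.2, 31.2 and 27.5 CPM in normal glucose and 34.4, 35.9 and 34.2 CPM in high glucose. The groups did not overlap, and the gene rose by 0.39 on the log2 scale with a standard error of 0.11 (adjusted P = 0.0244). The metalloreductase genes Steap3 and Steap4 rose by 0.90 and 0.46, and Mt2, a metallothionein gene, by 0.37. Of 11 other copper enzymes of the secretory pathway, 9 were tested and 4 were higher. Aoc3, which encodes a copper amine oxidase of the cell surface, rose by 1.01 (adjusted P = 1.1e-05), and Moxd1, Cp and Aoc2 rose by 0.88, 0.56 and 0.50.

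Factors known to act on the family and genes of the hypoxia response were compared last, since Lox, Loxl2 and Loxl4 are known hypoxia-inducible genes and Loxl2 and Loxl3 are known partners of Snail proteins. Of 16 upstream factors, 9 were higher and 2 were lower, with a median log2 fold change of 0.16. Among all tested genes, 16.9% were higher and 14.5% lower. Leaving out normal glucose replicate 3 left 5 higher, and leaving out high glucose replicate 1, 2 or 3 left 4. Library size scaling left 3. Tgfb2, a TGF-beta ligand, and Epas1, which encodes HIF-2alpha, had log2 rises of 1.31 and 1.20 (adjusted P = 6.4e-07 and 5.9e-07), and Smad3 and Arnt by 0.31 and 0.27. Smad7, an inhibitory Smad gene, fell by 0.59. Snai2 fell from 59.4, 58.1 and 54.6 CPM to 40.9, 42.8 and 41.8 CPM, by -0.46 on the log2 scale (adjusted P = 0.000112). The more abundant Snai1, named after its values were seen, had 149 ± 17.3 and 155 ± 6.33 CPM (SD, n = 3), a difference of 0.055 (adjusted P = 0.648). Of 15 hypoxia response genes, 3 were higher and 7 were lower, with a median of -0.19. The 3 higher are near the share of 16.9% over all tested genes, and the 7 lower are above the share of 14.5%. Plod2, a collagen lysyl hydroxylase gene, Egln3 and Adm rose by 0.61, 0.58 and 0.25, while Pgk1, Bnip3, Pdk1 and Car9 fell by 0.65, 0.49, 0.41 and 0.38.

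**Figure D5:**
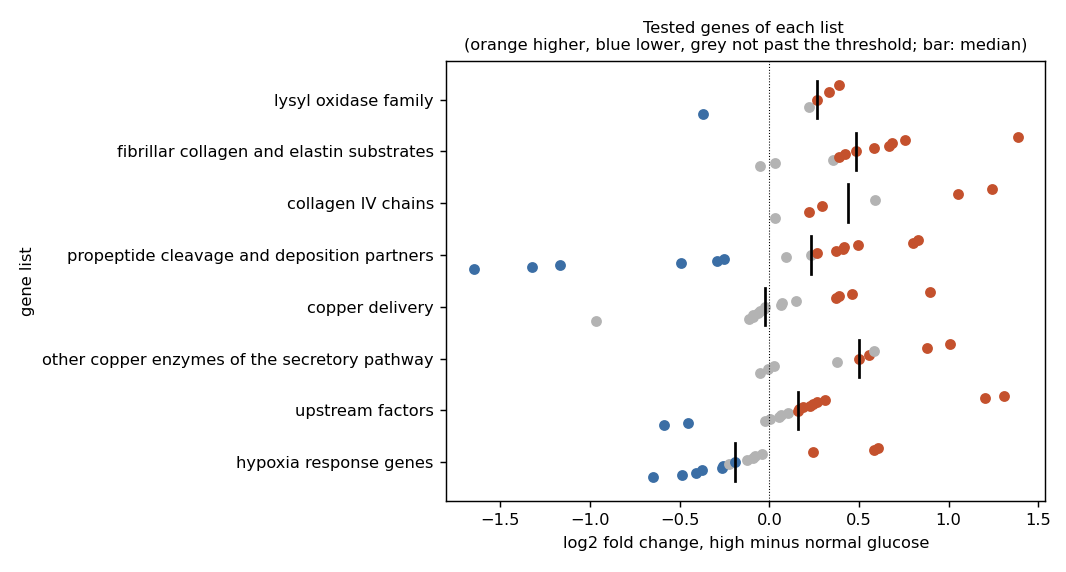
Log2 fold change, high minus normal glucose (horizontal axis), of every tested gene in the family and in the 7 lists described (vertical axis). Orange points were higher and blue points lower at an adjusted P value under 0.05, grey points did not pass, and the black bars are medians. Fibrillar collagens lie mostly to the right of the family, the hypoxia genes mostly to the left of 0, and the cleavage and deposition partners on both sides.

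The promoter table of RefSeq (GRCm38.p6) matched 1 of the 5 members, Loxl4. The 250 bases before its RefSeq start (chr19:42612807-42613056, minus strand) are printed 5′ to 3′ because Loxl4 is counted among the hypoxia-inducible members. The GENCODE start used above, 42612813, lies within this window. Capitals mark the single match to any motif searched.
Loxl4: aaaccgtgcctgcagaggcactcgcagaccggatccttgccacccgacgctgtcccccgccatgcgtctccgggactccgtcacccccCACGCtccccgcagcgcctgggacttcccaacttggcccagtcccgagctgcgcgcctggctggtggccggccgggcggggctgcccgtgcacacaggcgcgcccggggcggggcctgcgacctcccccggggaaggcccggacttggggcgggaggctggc
The match is to GCGTG, one form of the hypoxia factor core, on the opposite strand, beginning 162 bases before the start. Of 32851 promoter windows of this length, 28.2% hold it on either strand. There was no match in these letters to the other hypoxia factor core ACGTG (held by 16.6% of the windows), the E-box CACGTG that contains it (6.02%), the Snail-type E-box CAGGTG (17.2%), the Smad element CAGACA (17.1%), the AP-1 element TGANTCA (6.75%), the forkhead element TAAACA (12%) or the TATA box TATAAA (12.4%). All were searched on both strands.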

How the data were processed

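RNA-sequencing of 6 cultures was analysed, grouped and numbered from their labels. Per the methods and the submitters' processing notes, the authors used Trimmomatic for trimming, HISAT2 for alignment (GRCm38), StringTie for counting and edgeR for testing, and they deposited raw counts per gene without normalization. Versions, annotation release and strand setting are not given in the sources used here. A count of 1 occurred 10842 times and a count of 2 occurred 9280 times, while 4 occurred more often than 3, so both reads of a pair may have been counted, and halved counts were tried.

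Of 55487 identifiers, 55141 had a symbol, and the others held 0.0340% of the counts. Counts were tested in R 4.3.3 with edgeR 4.0.16 (filterByExpr with a minimum count of 10 and total of 15, TMM, quasi-likelihood test, no covariates, Benjamini-Hochberg adjustment over 19015 genes, threshold 0.05). Standard errors come from the test statistic. DESeq2 1.42.0, other scalings and filters, a replicate block and each culture left out were alternatives, and a trend on GC content and length removed with mgcv 1.9.3 was added after seeing the data. Gene positions and lengths came from GENCODE M21, and the fit was tested on simulated data. A floor of 3 counts is 0.0204 to 0.0250 CPM and covers counting error only. Replicates differed by more than sampling noise (chi-square over its degrees of freedom from 9.64 to 60.3).

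The members, lists and tests were chosen with earlier results of these data known. Named genes are the members, up to 4 called genes per list and direction with the largest change, genes overlapping a member, and the 3 genes with the most similar profile to each called member. Of the cell type markers the rule names only Pecam1 and Cdh5. Bmp1, Eln, Col4a1, Snai1, Col5a2, Flt1 and Dcn fall outside it. Ratios to substrates and ratios between members were added afterwards. A sequence of Lox and 1 gene with a similar profile are not reported here.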

Additional observations from a re-analysis of the deposited data

How the results depend on the processing

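Family calls were 3 higher and 1 lower in every alternative other than library size scaling, where Loxl1 differed by 0.15 on the log2 scale (adjusted P = 0.059) and was not called, and a minimum log2 fold change of 1, which left 0 and 0. The cause of the former was not tested beyond the shift of all genes. Over 17 alternatives each, the log2 fold change lay between 0.27 and 0.43 for Lox, 0.15 and 0.31 for Loxl1, 0.22 and 0.36 for Loxl2, -0.48 and -0.34 for Loxl3 and 0.044 and 0.31 for Loxl4. Loxl4 was not called in any of them (adjusted P from 0.131 to 0.529). Loxl1 stayed called without high glucose replicate 1, though close to the threshold (edgeR, adjusted P = 0.0484).

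With that minimum, the fibrillar collagen and elastin list had 1 higher, collagen IV 2, cleavage and deposition partners 0 higher and 3 lower, copper delivery 0, other copper enzymes 1, upstream factors 2 higher and 0 lower, and hypoxia genes 0 and 0. Library size scaling gave 1 lower fibrillar collagen or elastin gene, 2 lower copper delivery genes, 1 lower copper enzyme, 3 higher upstream factors and 12 lower hypoxia genes. Removing the GC and length trend gave 1 lower fibrillar collagen or elastin gene and 2 lower copper delivery genes. The likelihood ratio test gave 1 lower copper delivery gene, no filter left 5 higher upstream factors, and a minimum of 1 CPM in 3 samples, which leaves out Col4a3 and Col4a4, left 2 higher collagen IV chains. With each culture left out in turn, 4 to 8 upstream factors were higher and 0 to 1 copper delivery genes lower. Apart from fewer genes tested, these causes were not tested.

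Replicate numbers did not pair the cultures (correlations of deviations of -0.025, 0.0038 and 0.013 for numbers 1, 2 and 3). With the replicate block, 3 members were higher and 1 lower, and the log2 fold changes of Lox, Loxl1, Loxl2, Loxl3 and Loxl4 were 0.39, 0.27, 0.33, -0.37 and 0.24. The block changed no family call. Loxl4 rests on the fewest counts, 3162 to 5621 per culture. Over all genes, 3212 higher and 2757 lower calls became 395 and 542 with the minimum log2 fold change of 1, 1819 and 4884 with library size scaling, and 1988 to 3149 and 2048 to 3065 with a culture left out.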

Other observations

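The genes with the most similar profile were found among 9977 other tested genes with a mean log2 CPM of at least 3, as the root mean square difference of centred log2 CPM over the 6 cultures. For Lox they included Fam210b and Atad2b, with differences of 0.0168 and 0.0183. For Loxl1 they were Mdga1, Slc39a3 and Akap1 (0.0167, 0.0176 and 0.0196). Fbxo10, Phf2 and Mbtps1, the last of which encodes the site-1 protease of the Golgi, were closest to Loxl2 (0.0104, 0.0125 and 0.0172). For Loxl3 they were Ppp1r13l, Incenp, a chromosomal passenger gene, and Tubb6, a beta-tubulin gene (0.0294, 0.0298 and 0.0320). None of the genes named here belongs to the 7 lists.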
